A study of Mus musculus with 3 samples.

Results

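Keratin gene expression was examined in the mouse distal colon. The members were all genes whose symbol is Krt followed by a number alone, each measured by a probe set with that single symbol, and 48 of the 19938 genes with 1 symbol met this rule. Every one of the 48 was covered by 1 probe set, so no choice between probe sets was needed. Krt81 and Krt83, which RefSeq also lists, had no probe set of their own and were not analysed here. Krt6a, Krt6b, Krt33a and Krt33b carry a letter in their symbols and fall outside the rule.

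The arrays held RNA pooled from adult male BALB/c mice, with 3 pools and 1 array for each. WT normal was a pool of 4 wild-type mice given plain drinking water. WT colitis was a pool of 3 wild-type mice given 3% dextran sulfate sodium (DSS), a polymer that injures the colonic epithelium, and KO colitis was a pool of 6 IL-4Rα-/- mice given the same 3% DSS, all taken on day 7. IL-4Rα-/- mice lack the receptor chain shared by IL-4 and IL-13 in every cell, the wild types were their littermates, and no untreated IL-4Rα-/- mice were on the arrays analysed here. With 1 array per group the values have no error, no significance test was run, and a difference describes these pools.

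Keratins are the intermediate filament proteins of epithelia. A filament is built from pairs of an acidic type I keratin and a basic type II keratin, and the pair that a cell makes marks its kind. Simple, single-layered epithelia such as that of the colon make KRT8 with KRT18, KRT19 and KRT20, and these filaments protect colonocytes from mechanical and other stress. Stratified squamous epithelia such as skin, oesophagus and the anal canal make KRT5 with KRT14 in basal cells, and KRT1 with KRT10 or KRT4 with KRT13 in the layers above. Hair shaft and inner root sheath keratins belong to the hair follicle. The members fell into 6 simple, 18 squamous, 9 inner root sheath and 11 hair shaft keratins, with 4 left unclassed, and into 26 genes of type I and 22 of type II.

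The 150 bases before the gene start are printed for the 2 keratins that passed 2-fold in colitis, Krt5 and Krt10, and for 2 simple keratins, Krt18 and Krt20, that stayed within 2-fold. They come from RefSeq on the build GRCm38.p6, run 5′ to 3′ on the strand of the gene, and carry in capitals each match to TATAA (the TATA box), TGANTCA (the AP-1 site) or CCAAT (the CCAAT box) on either strand.
Krt5, chr15:101712906-101713055, minus strand: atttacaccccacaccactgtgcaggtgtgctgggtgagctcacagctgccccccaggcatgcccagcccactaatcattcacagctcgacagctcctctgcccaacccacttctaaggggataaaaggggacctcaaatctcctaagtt
Krt10, chr11:99389365-99389514, minus strand: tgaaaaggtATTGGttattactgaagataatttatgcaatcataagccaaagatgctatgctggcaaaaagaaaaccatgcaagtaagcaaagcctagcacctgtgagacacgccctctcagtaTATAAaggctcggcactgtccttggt
Krt18, chr15:102028066-102028215, plus strand: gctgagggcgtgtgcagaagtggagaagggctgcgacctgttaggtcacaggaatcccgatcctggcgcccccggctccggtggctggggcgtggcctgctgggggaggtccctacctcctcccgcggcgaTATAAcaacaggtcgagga
Krt20, chr11:99438154-99438303, minus strand: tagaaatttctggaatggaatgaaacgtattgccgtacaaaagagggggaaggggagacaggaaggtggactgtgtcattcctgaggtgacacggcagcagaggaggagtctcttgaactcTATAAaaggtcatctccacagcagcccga
TATAA lay 26 bases before the start of Krt10, 19 before that of Krt18 and 29 before that of Krt20, and the Krt10 stretch also held CCAAT on the opposite strand, 141 bases before the start. No match stood in the Krt5 stretch, which says only that these letters are absent there. Promoters of 35 keratin genes were listed, 36 windows in all, each of 250 bases before and 50 after a start. TATAA was found in 25 of the 36 (69.4%), against 24.9% of all 32851 windows of that length, CCAAT in 14 (38.9%, against 37.4%) and TGANTCA in 2 (5.56%, against 7.81%). Many keratin genes are close copies of one another, so these windows are not independent. Both the squamous Krt10 and the simple Krt18 and Krt20 held TATAA, so its presence did not separate the classes among the genes printed.

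Values are log2 signals, and a difference of 1 on this scale is 2-fold. As a guide to background, 1205 probe sets for olfactory and vomeronasal receptors had a median of 2.44 and a 95th percentile of 3.5. Of the 48 keratins, 18 were above 3.5 on at least 1 array, 14 on all 3, and 30 on none. Of all 19938 genes, 12600 were above it on at least 1 array, 12233 on all 3, and 7338 on none. All 6 simple keratins were above the guide level on all 3 arrays. Of the squamous keratins, 7 of 18 were above it on at least 1 array and 4 on all 3. Among the hair shaft keratins 2 of 11 were above it, and among the inner root sheath keratins 0 of 9. The same signal to 2 decimals stood on all 3 arrays for 23 keratins (47.9%), as it did for 45.8% of all genes. Equal values are therefore common in these files, no source used here names the step that produced them, and a difference of 0 does not show that a transcript was unchanged. Each probe set has its own brightness, so a gene set against the guide level or called bright or dim is described roughly. Such words do not rank the amounts of different transcripts.

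**Figure D1:**
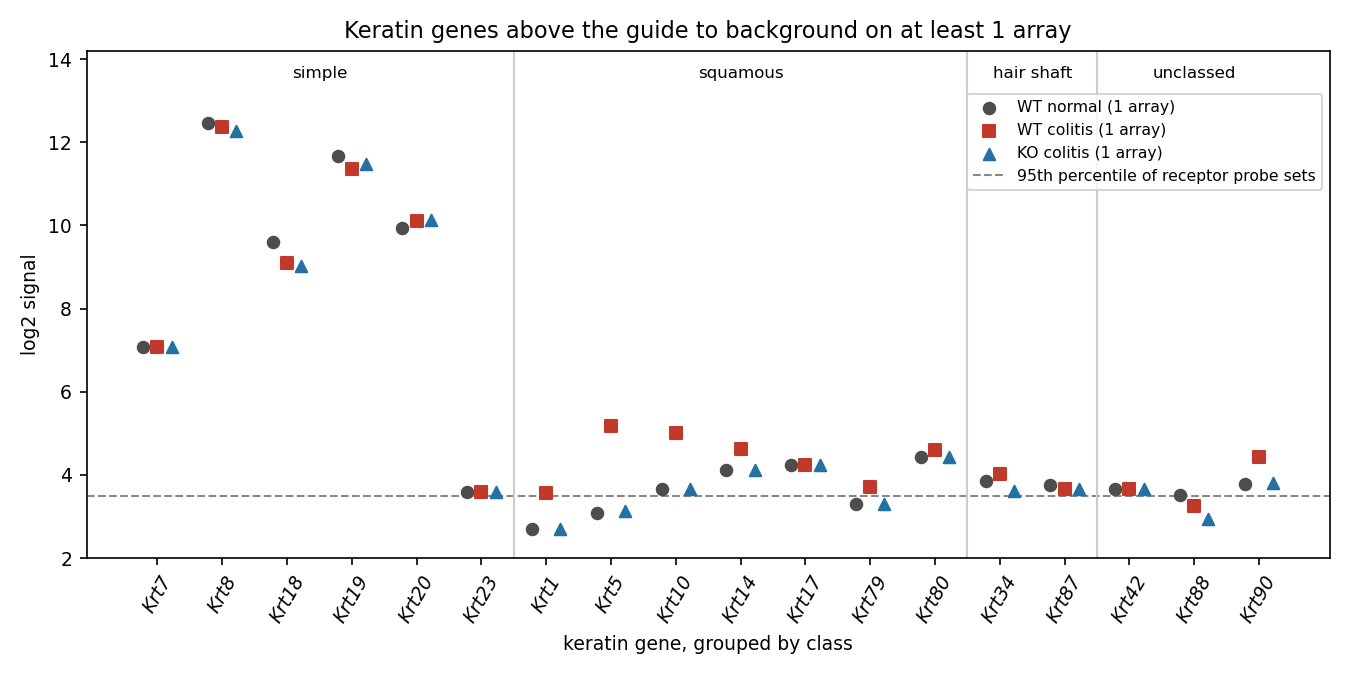
Log2 signal (y axis) of the 18 keratin genes above the guide to background on at least 1 array (x axis, grouped by class), with 1 point per array and a dashed line at 3.5, the 95th percentile of the receptor probe sets. The 3 points of each simple keratin lie close together, while the WT colitis squares of Krt5, at 5.17, and Krt10, at 5.0, stand above the other arrays.

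The label of colon was checked first. The 8 markers of columnar epithelium had log2 signals between 7.17 and 11.68 on all arrays, among them Epcam, an epithelial adhesion molecule, with 10.07 on the WT normal array, 10.16 on WT colitis and 10.28 on KO colitis. Il4ra, the gene deleted in the KO, had 5.69, 6.63 and 4.76 in the same order, and where its probes lie relative to the deletion is not known here. Of 8 defining squamous markers, 5 were at or below the guide level on all 3 arrays, among them Dsg3, a desmosomal cadherin, at 2.40 throughout. Trp63, the basal cell transcription factor, had 3.16, 3.56 and 3.16, while Pkp1, a desmosomal plaque protein, had 5.10 on all 3 arrays. The WT normal array stood apart in pancreatic transcripts. Ctrb1, chymotrypsinogen, had 10.55 in WT normal and 3.49 and 3.03 in the colitis pools, and Cpa1, a carboxypeptidase, had 8.53 and then 3.17 on both. In bulk tissue, fewer cells of a type and less RNA per cell cannot be told apart.

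The simple keratins differed little between the pools. Krt8, the type II keratin of colonocytes, had a log2 signal of 12.47 on the WT normal array, 12.36 on WT colitis and 12.28 on KO colitis. Krt18, its type I partner, had 9.60, 9.09 and 9.03. Krt19, the smallest keratin and another partner of KRT8, had 11.68, 11.36 and 11.48. WT normal was thus the highest of the 3 arrays for Krt8, Krt18 and Krt19. Krt20, the type I keratin of mature surface colonocytes, had 9.94, 10.11 and 10.14 and was lowest in WT normal. Krt7, a type II keratin of ducts and urothelium, had 7.07 on all 3 arrays. Krt23, a type I keratin, had 3.58 on all 3, just above the guide level.

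Of the 6 simple keratins, 0 were more than 2-fold different in any of the 3 comparisons. At most 1.16% of all genes were so in 1 direction of a comparison, so 0 of 6 is near that share. The difference furthest from 0 was that of Krt18, which in WT colitis was 1.42-fold below WT normal (log2 difference -0.51) and 1.48-fold lower in KO colitis (-0.57). By size of decrease from WT normal it ranked 273 of 19938 genes in WT colitis and 165 in KO colitis. The median of the class was -0.055 in WT colitis minus WT normal and -0.095 in KO colitis minus WT normal, while the median of all genes was 0 in both. Against each other the colitis pools were closer still, with KO colitis minus WT colitis between -0.08 for Krt8 and 0.12 for Krt19. The sign for Krt8 turned after quantile normalization (0.02) and that for Krt18 after centring (0.01). Krt8, Krt18 and Krt19 are also made by pancreatic ducts. The pancreatic enzyme transcripts above, Ctrb1 and Cpa1, were highest on the same WT normal array. Krt7, a keratin of ducts, had 7.07 on all 3 arrays, and equal values here do not show that a transcript was unchanged. The part of pancreatic tissue in these differences was not tested.

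Within an array, the balance among the simple keratins moved unevenly. Relative to Krt8 on the same array, Krt18 changed by -0.40 between WT normal and WT colitis and by -0.38 between WT normal and KO colitis. Krt20 moved the other way relative to Krt8, by 0.28 and 0.39. Krt19 relative to Krt8 changed by -0.21 in WT colitis and by -0.01 in KO colitis. Both colitis pools thus had a lower Krt18 signal and a higher Krt20 signal than WT normal, each relative to Krt8. These comparisons share the single WT normal array, so the likeness of the colitis pools is not separate evidence. Relative to Epcam, Krt20 changed by 0.08 in WT colitis and -0.01 in KO colitis, whereas Krt18 changed by -0.60 and -0.78. These are unequal changes between probe sets and do not show that any of them stayed level.

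Other columnar epithelial genes give the setting of these small changes. Of 20 such genes, 2 passed 2-fold downwards from WT normal to WT colitis, where 0.456% of all genes did. Upwards 0 passed, against 1.16% of all genes, and the median log2 difference was -0.165. The 2 were Aqp8, a water channel of surface colonocytes, with 9.59 on the WT normal array, 8.03 on WT colitis and 9.67 on KO colitis, and Slc26a3, a chloride exchanger, with 10.11, 9.05 and 10.01. Krt20, which also marks surface colonocytes, did not share their dip in WT colitis. Vil1, villin of the brush border, had 9.18, 8.95 and 9.06, and Cdh1, E-cadherin, had 10.49 on all 3 arrays. In KO colitis against WT colitis, 1 of the 20 was more than 2-fold higher, Aqp8, where 0.271% of all genes were. Lower by more than 2-fold were 0, against 0.908% of all genes. The 8 columnar markers above had a median log2 difference of 0.01 in WT colitis minus WT normal, against -0.165 for these 20. The direction of the median thus depends on the genes listed.

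Keratin filaments end on desmosomes and hemidesmosomes through linker proteins. Of 14 genes for these junctions and linkers, 0 were more than 2-fold different in any comparison, and their median difference was 0.025 in WT colitis minus WT normal and 0 in KO colitis minus WT colitis. Dsp, desmoplakin, which ties keratins to desmosomes, had 8.99 on the WT normal array, 9.60 on WT colitis and 9.35 on KO colitis, the largest difference of the 14. Dsg2, the desmoglein of simple epithelia, had 8.29 on all 3 arrays. Of 16 other intermediate filament genes, 0 passed 2-fold. Vim, vimentin of mesenchymal cells, had 10.29, 10.79 and 10.13, and Des, desmin of muscle, had 10.26, 10.17 and 9.82. In 6 smooth muscle genes 0 passed 2-fold, with a median of -0.13 in WT colitis minus WT normal. At most 1.16% of all genes passed 2-fold in 1 direction of a comparison, so counts of 0 in such short lists are near that share.

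The keratins that differed most between WT normal and WT colitis were squamous. Krt5, the type II keratin of basal squamous cells, had a log2 signal of 3.09 on the WT normal array, 5.17 on WT colitis and 3.14 on KO colitis. It was above the guide level on the WT colitis array alone. Krt10, the type I keratin of suprabasal epidermis, had 3.66, 5.0 and 3.66. It was a little above the guide level in WT normal and KO colitis and brighter in WT colitis. As log2 signals, Krt14, the basal partner of KRT5, had 4.11, 4.63 and 4.11, and Krt1, the suprabasal partner of KRT10, had 2.71, 3.56 and 2.71. In both pairs the brighter array was WT colitis.

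Past 2-fold in WT colitis against WT normal were 2 of 48 keratins, Krt5 and Krt10, both higher, where 1.16% of all genes were more than 2-fold higher. Lower by more than 2-fold were 0 of 48, against 0.456% of all genes. Krt5 was 4.23-fold higher (log2 difference 2.08) and ranked 33 of 19938 genes by size of increase. Its WT normal signal was below the guide level, and measured from that level the WT colitis signal was 3.18-fold higher, which is within 4-fold. Past 4-fold, the threshold the study used, was 1 keratin, Krt5, where 0.181% of all genes were. Krt10 was 2.53-fold higher (1.34) and ranked 99. Of the 7532 genes below the guide level in WT normal, 29 were over 2-fold brighter in WT colitis and 8 more than 4-fold, and Krt5 was among both. When 32 was added to each linear signal, which shrinks differences of dim probe sets, Krt5 had a log2 difference of 0.75 and Krt10 of 0.52, and 0 keratins passed 2-fold.

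Within each squamous pair the log2 differences were unequal. The difference of WT colitis from WT normal was 2.08 for Krt5 and 0.52 for Krt14, so the Krt5 signal changed by 1.56 relative to Krt14. For the suprabasal pair it was 0.85 for Krt1 and 1.34 for Krt10. For the pair of moist mucosae it was 0.20 for Krt4 and 0.42 for Krt13, whose signals, 2.78 and 3.47 in WT colitis, did not pass the guide level. Krt1 and Krt5 were also below the guide level in WT normal, and from that level Krt1 was 1.04-fold higher in WT colitis. The pairs were therefore not put in order, and the value for Krt5 relative to Krt14 depends on a dim WT normal signal.

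**Figure D2:**
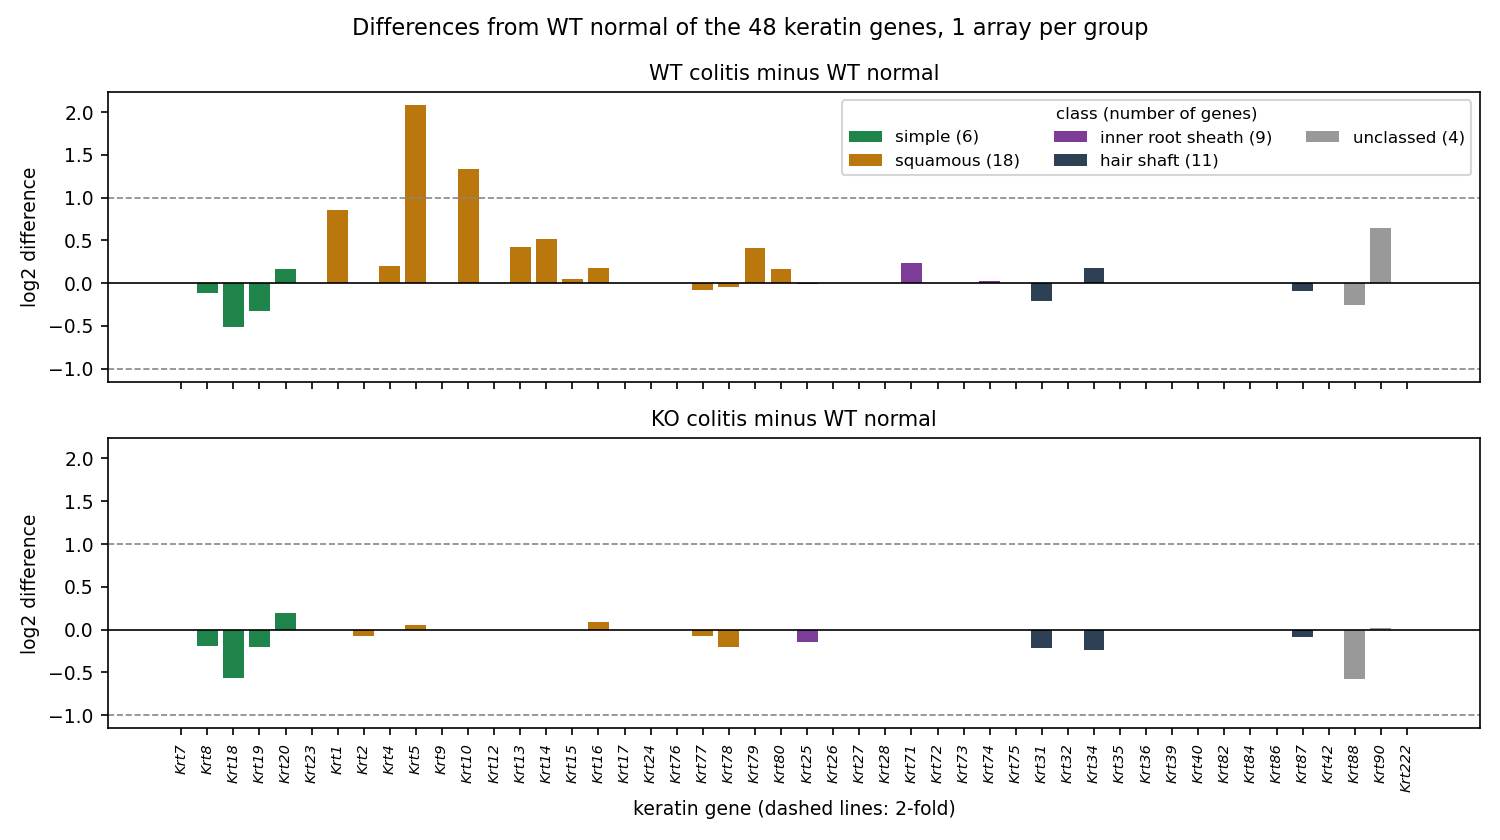
Log2 difference from WT normal (y axis) of each of the 48 keratin genes (x axis, coloured by class), for WT colitis in the upper panel and KO colitis in the lower, with dashed lines at 2-fold and 1 array per group. In WT colitis Krt5 reached 2.08 and Krt10 1.34, and in KO colitis every keratin lay between -0.58 and 0.20.

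Keratins of the wound response in squamous epithelia were read beside Krt5. Krt17 had a log2 signal of 4.25 on all 3 arrays. Krt16 had 2.23 on the WT normal array, 2.41 on WT colitis and 2.32 on KO colitis, all at background. Their type II partners, outside the rule, were Krt6a with 2.87, 3.41 and 3.17 and Krt6b with 3.96, 4.04 and 4.04. None of these 4 passed 2-fold in any comparison. From WT normal to WT colitis, Krt6a differed by 0.54, Krt16 by 0.18, Krt6b by 0.08 and Krt17 by 0. The signals of Krt16 and Krt6a were below the guide level on all 3 arrays. Neither they nor the equal values of Krt17 show that a transcript was unchanged. Krt15, another basal keratin, had 3.07, 3.12 and 3.07, below the guide level.

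The other squamous keratins were dim. Krt79, a keratin of hair follicle openings and sebaceous ducts, had 3.31 on the WT normal array, 3.72 on WT colitis and 3.31 on KO colitis, and Krt80 had 4.44, 4.6 and 4.44. Krt2, Krt9, Krt12, Krt24, Krt76, Krt77 and Krt78 were at or below 3.39 on all 3 arrays and differed by at most 0.20. Over the whole class of 18, 10 were brighter in WT colitis than without DSS, 2 were dimmer and 6 were equal, with a median log2 difference of 0.105. Over all genes, 35.8% were higher, 12.0% lower and the median was 0, so the WT colitis array had the higher value more often in general. Centring each array on its median lowers every difference of WT colitis from WT normal by 0.07, which turns the sign of Krt15 and puts the 6 equal genes below 0.

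WT colitis was above 2 equal values for 8 of the 18 squamous keratins, Krt1, Krt4, Krt10, Krt13, Krt14, Krt15, Krt79 and Krt80, which had the same signal in WT normal and KO colitis to 2 decimals. Over all 48 keratins this pattern was seen in 10 (20.8%), the other two being Krt71 and Krt74 of the inner root sheath, both at background. Over all genes it was seen in 17.6%, so for keratins as a whole its share was near that of the array. It was seen in 0 of the 6 simple keratins.

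In KO colitis against WT colitis, 2 of 48 keratins were more than 2-fold lower, where 0.908% of all genes were. They were Krt5, 4.08-fold lower (log2 difference -2.03), and Krt10, 2.53-fold lower (-1.34). By size of decrease they ranked 29 and 85 of 19938 genes. Krt5 was below the guide level in KO colitis, and with that level in its place it was 3.18-fold lower. By the deposited signals Krt5 alone was past 4-fold, where 0.150% of all genes were, and it was within 4-fold from the guide level and after quantile normalization (-1.93) or centring of each array on its median (-1.96). More than 2-fold higher were 0 of 48, against 0.271% of all genes. This comparison and that of WT colitis with WT normal share the WT colitis array, so the values of Krt5 and Krt10 in both are not separate evidence.

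Against WT normal, KO colitis had 0 of 48 keratins more than 2-fold higher, where 0.186% of all genes were, and 0 lower, against 0.336%. Differences ran from -0.58 for Krt88 to 0.20 for Krt20. Krt5 differed by 0.05 and Krt10, Krt1, Krt13 and Krt14 by 0. Of the squamous class, 13 of 18 were equal on these 2 arrays, as were 13113 of all 19938 genes, a like share. The other 5 of the class differed by at most 0.20.

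Squamous genes other than keratins were read on the same arrays. Of 18 measured, 1 passed 2-fold upwards from WT normal to WT colitis, where 1.16% of all genes did, and 0 downwards, against 0.456%. Their median difference was 0.075, and 10 (55.6%) were above 0, against 35.8% of all genes. The 1 gene was Krtdap, keratinocyte differentiation associated protein, with a log2 signal of 2.53 on the WT normal array, 3.95 on WT colitis and 2.53 on KO colitis. In KO colitis against WT colitis it was again the 1 gene past 2-fold, here lower, where 0.908% of all genes were. Its signal was below the guide level in WT normal and KO colitis, and from that level it differed by 1.37-fold in both comparisons, within 2-fold. Lgals7, a galectin of stratified epithelia, had 3.15, 3.73 and 3.05, and Sprr3, a cornified envelope precursor, had 2.81, 3.35 and 2.81. Brightest of the list were Sprr1a, another cornified envelope precursor, with 7.86, 8.22 and 8.45, and Serpinb5, maspin, with 7.16, 7.36 and 7.65, and both were highest in KO colitis, unlike Krt5 and Krt10. Trp63 differed by 0.40, and Dsg3, Sprr1b and Ivl, involucrin, by 0, each below the guide level on all 3 arrays except Trp63 with 3.56 in WT colitis. Of the 8 defining markers, 4 were higher in WT colitis, where 35.8% of all genes were, and 4 were equal. Besides Krtdap, these were Trp63, Lor at 0.24 and Dsc3 at 0.13, all within 2-fold. The median of their signals was 2.72, 3.24 and 2.72, and their part in the keratin differences was not tested. Krtdap and these lists were chosen with values of this series known.

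**Figure D3:**
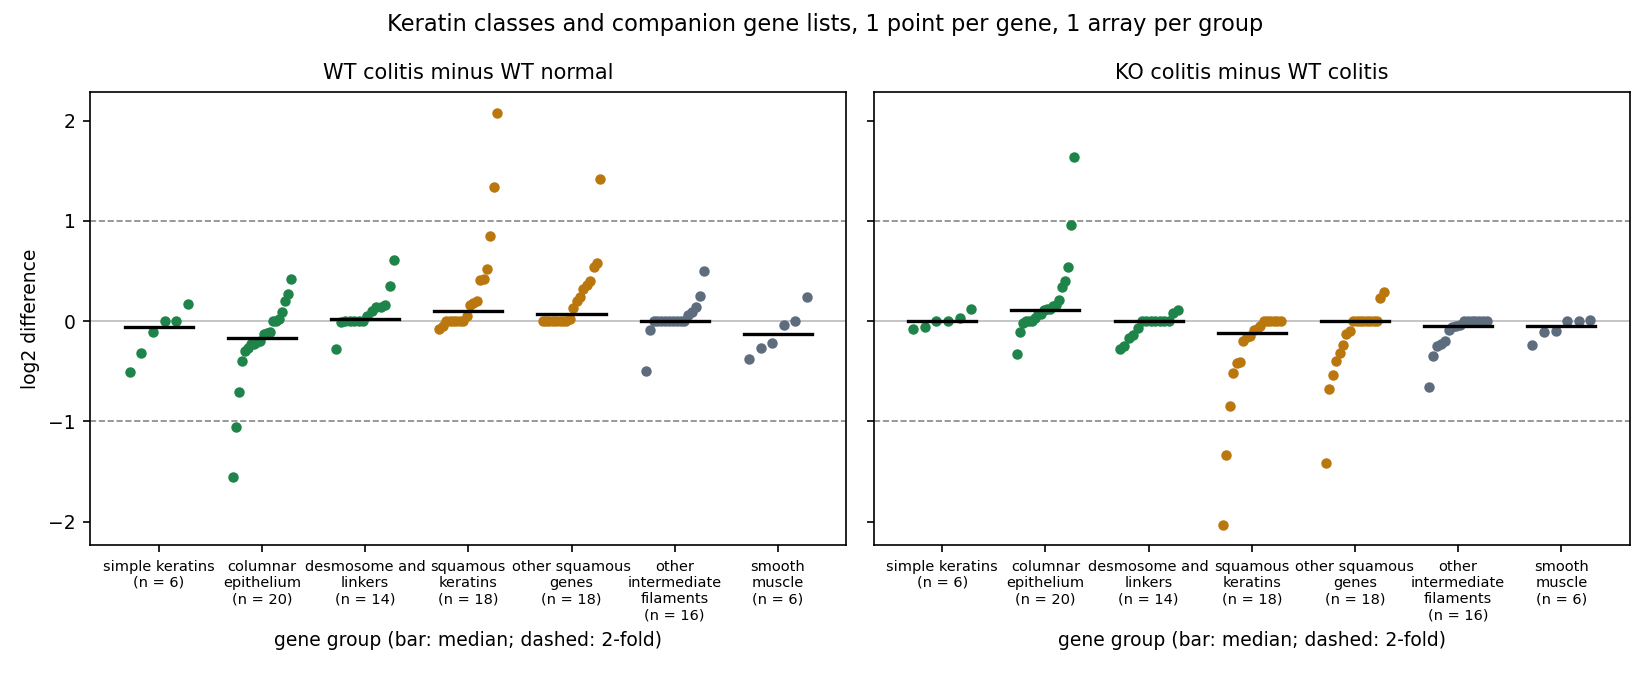
Log2 difference (y axis) of each gene, as points, in the simple and squamous keratin classes and 5 companion lists (x axis), with a bar at the median, dashed lines at 2-fold and 1 array per group. The left panel shows WT colitis minus WT normal and the right panel KO colitis minus WT colitis, where Krt5, at 2.08 and -2.03, is the squamous keratin furthest from 0.

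The keratins of the hair follicle were at background in most cases. The 9 inner root sheath keratins lay between 2.11 and 3.10 on all arrays, and 6 of them were equal on all 3. Of the 11 hair shaft keratins, 8 were equal on all 3 arrays. Krt34 had 3.85 on the WT normal array, 4.03 on WT colitis and 3.61 on KO colitis, and Krt87 had 3.75, 3.66 and 3.66. The other hair shaft keratins did not pass the guide level. In these 20 genes, differences from WT normal ran from -0.21 to 0.23 in WT colitis and from -0.24 to 0 in KO colitis.

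Of the unclassed keratins, Krt90 had a log2 signal of 3.79 on the WT normal array, 4.43 on WT colitis and 3.81 on KO colitis, with the brighter value in WT colitis as in Krt5. Krt88 had 3.52, 3.26 and 2.94 and Krt42 had 3.66 on all 3 arrays. Krt222 had 3.41 on all 3, below the guide level. By type, 1 of 26 type I keratins, Krt10, and 1 of 22 type II keratins, Krt5, passed 2-fold in WT colitis, and 9 of each type were above the guide level on at least 1 array.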

How the data were processed

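Distal colon RNA, pooled by group, was measured on 1 GeneChip Mouse Gene 1.0 ST Array for each of 3 groups. The labels name Cy3 labelling with an Agilent kit, whereas the probe set numbers are those of the Affymetrix array. For 28944 probe sets, the deposited values are log2 signals, rounded by the authors to 2 decimals. The methods name GeneChip Analysis Suite and Transcriptome Analysis Console, and median centring for a colour display, but the deposited columns are not centred at 0, with medians of 4.11, 4.18 and 4.11. The algorithm that summarised probes and scaled the deposited arrays was not given in the sources used here. Precision is limited by 1 array per group.

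Gene names came from the platform annotation, which gave 21789 probe sets 1 symbol. Each gene was read from its brightest probe set by mean over arrays, leaving 19938 genes. The 48 keratins matched RefSeq by gene number. Differences between deposited log2 signals were counted past 2-fold, and no test was run. Classes and lists were taken from textbook knowledge, and members and lists were chosen with earlier results of these data known. Values were given for every keratin past 2-fold, above background or of simple epithelia, and others by class. Alternatives were quantile normalization, centring, an offset of 32, filters on dim genes, the mean of probe sets and a 4-fold threshold. Counting steps were tested on simulated data. Python 3.11.15, numpy 2.4.6, pandas 2.3.3 and matplotlib 3.10.9 were used.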

Additional observations from a re-analysis of the deposited data

How the results depend on the processing

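The counts of keratins past 2-fold in each direction of the 3 comparisons were recomputed under 7 alternatives, and 36 of 42 values were the same. All 6 values that moved belonged to counts that were not 0. A count of 0 could not rise under the offset, the filters or the 4-fold threshold, so the 36 do not measure how stable the results are. Quantile normalization, centring of each array, the filter at the receptor percentile and the mean of probe sets left 2 above WT normal in WT colitis and 2 below WT colitis in KO colitis. Each of these counts fell to 0 when 32 was added to the linear signals, and to 0 when genes with a mean signal at or below 4.14, the median of all values, were left out, a filter that kept 8 keratins and removed both Krt5 and Krt10. Each was 1, Krt5, at 4-fold. The filter at the receptor percentile kept a gene by its highest array. Krt5 passed it through the WT colitis array alone, so its being kept there is no support for its difference. Krt5 and Krt10 kept their direction under each of the 4 settings tried for single genes. In WT colitis minus WT normal, Krt5 lay between 0.75 and 2.08 and Krt10 between 0.52 and 1.34. The offset can shrink a difference but cannot turn its sign, so the direction under it was fixed in advance. Between the colitis pools, the difference of Krt18 ran from -0.06 to 0.01 and that of Krt8 from -0.08 to 0.02, so neither has a settled sign. Since each keratin had 1 probe set, the mean of probe sets could not change its value. No paired analysis was possible because each group had 1 array, and no replicate could be left out. Dim signals limit what can be said of 30 keratins, which did not pass the background guide on any array.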
